A study of Homo sapiens with 12 samples.

Results

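MGP, C12orf60, FILIP1L and TMEM108-AS1 are 4 of the 60603 genes in a table of RNA-seq counts from T24 cells, an established human bladder carcinoma line. They are described here because their transcripts moved strongly when the inducer of a protein degradation system was added to one of the lines. MGP, C12orf60 and TMEM108-AS1 were chosen by the size of the inducer effect in NS1 cells, and FILIP1L by the difference between that effect and the effect in WT cells. All 4 members were among the 17775 genes that passed a filter on low counts.

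The series concerns AlissAID, a system in which an auxin derivative brings an untagged endogenous protein to a ubiquitin ligase. Poly(A) RNA was sequenced in 12 libraries from 4 groups of 3: T24 cells of genotype WT without treatment, WT cells with 5-Ad-IAA, NS1 cells without treatment, and NS1 cells with 5-Ad-IAA. 5-Ad-IAA is an auxin derivative used as the inducer of such systems. The labels do not spell out NS1, do not name the protein it degrades and do not say whether the NS1 line is 1 clone. Dose and treatment time are not used here. Nothing in the labels says that replicates came from separate cultures, so p-values measure the spread between these libraries, which may be technical.

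MGP encodes matrix Gla protein, a small secreted protein that binds calcium through glutamates carboxylated with the help of vitamin K. It is known as an inhibitor of calcification in cartilage and artery walls and as a modulator of bone morphogenetic protein (BMP) signalling. FILIP1L encodes a coiled-coil protein related to the filamin-binding protein FILIP1, and has been studied for its effects on cell motility and WNT signalling. C12orf60 encodes a protein without a well-described role, and TMEM108-AS1 is a non-coding RNA transcribed from the strand opposite TMEM108.

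In GENCODE 29 on GRCh38, MGP (ENSG00000111341.9) lies on the minus strand of chromosome 12 from 14881181 to 14885926. C12orf60 (ENSG00000182993.4) runs along the plus strand of the same chromosome from 14803572 to 14906586, and so spans all of MGP. FILIP1L (ENSG00000168386.18) lies on the minus strand of chromosome 3 from 99830141 to 100114513, within CMSS1 on the opposite strand. TMEM108-AS1 (ENSG00000251011.6) also lies on the minus strand of chromosome 3. GENCODE 29 holds an earlier version of this last gene, from 133246106 to 133257188. Neither FILIP1L with CMSS1 nor TMEM108-AS1 with TMEM108 shares an exonic base.

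MGP and C12orf60 share 76 exonic bases on opposite strands, which are 2.9% of the exonic bases of MGP and 1.6% of those of C12orf60. Exonic bases are those of all annotated transcripts merged, so the share differs for single transcripts. The shared bases fall in the first exon of MGP, where C12orf60-204 has its first exon, and 61 of them are coding in MGP. Reads from this stretch could belong to either gene when strand is not used.

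The remaining exons of C12orf60 do not touch MGP. Of its exonic bases, 1726 (37.4%) lie before MGP on the plus strand and 2795 (60.6%) lie beyond it, towards the next gene, ERP27.

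The starts of a member that was higher in treated NS1 cells and of the member that was lower are shown for comparison of their composition. Each is 250 bases of the minus strand ending just before the gene's start in RefSeq (GRCh38.p14), which holds such sequence for these 2 members. FILIP1L is at chr3:99876174-99876423 and TMEM108-AS1 at chr3:133257122-133257371. Capitals mark TGACGT, the core of the cyclic AMP response element (CRE).
FILIP1L, proximal start: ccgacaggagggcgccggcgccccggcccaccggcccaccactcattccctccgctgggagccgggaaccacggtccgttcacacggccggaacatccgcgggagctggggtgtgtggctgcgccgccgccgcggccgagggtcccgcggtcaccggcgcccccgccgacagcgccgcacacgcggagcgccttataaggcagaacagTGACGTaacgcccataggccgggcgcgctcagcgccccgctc
TMEM108-AS1: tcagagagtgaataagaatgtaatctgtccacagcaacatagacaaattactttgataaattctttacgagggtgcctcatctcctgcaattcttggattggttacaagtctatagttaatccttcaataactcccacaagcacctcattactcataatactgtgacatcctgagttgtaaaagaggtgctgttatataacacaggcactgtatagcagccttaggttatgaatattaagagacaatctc

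The FILIP1L sequence is 75.6% G and C with 38 CpG sites, and that of TMEM108-AS1 is 37.2% G and C with 1 CpG site. Over 35116 promoters in the same RefSeq set the medians are 58.0% and 11 CpG sites. A second FILIP1L start, upstream at 100114502 to 100114751, is 48.0% G and C with no CpG site. Counts per gene do not separate the starts. On both strands, TGACGT was found once, 42 bases before the proximal FILIP1L start, and 7.1% of all promoters hold it. No match to the AP-1 letters TGANTCA, the FOXO letters TGTTTAC or the TATA letters TATAAA was found in these 3 windows. Of all promoters, 6.57%, 2.98% and 10.7% hold them, respectively.

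Library totals ran from 10593934 to 20266996 counts. In each group the libraries numbered 1 stood apart from the others, and no label names a batch. Values are therefore also given without it where it matters. Values below are normalised CPM, which are counts scaled to library totals adjusted by TMM, and fold changes come from one edgeR quasi-likelihood model of all 12 libraries. With the inducer, 1093 genes (6.15%) were called in NS1 cells at a Benjamini-Hochberg adjusted p under 0.05, 2.76% of those tested as higher and 3.39% as lower. In WT cells edgeR called 0 genes (0.0%), 94 had an unadjusted p under 0.05, and DESeq2 also called 0.

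The T24 identity was compared with 16 urothelial and epithelial markers. KRT7, KRT8, KRT18 and KRT19, keratins of simple epithelium and urothelium, were abundant in all groups, whereas KRT5, TP63 and UPK3A had 0 counts in every library. CDH1 held at most 2 counts in any library, and EPCAM averaged 0.945 to 3.03 CPM over the groups. Of the 16 markers, 6 had at most 3 counts anywhere. The summed level of the 16 markers ran from 4410 to 6110 CPM in untreated WT cells, from 5250 to 6060 in treated WT cells, from 4170 to 7690 in untreated NS1 cells and from 5260 to 11200 in treated NS1 cells. Over all tested genes 50.8% were higher in treated NS1 cells and 6.15% were called. All 9 tested markers were higher there, and 1 passed the test. It was GATA3, a transcription factor of the urothelium, at 30.9 ± 3.31 (SD, n = 3) against 78.2 ± 23.3 CPM (log2 fold change 1.34, SE 0.32, edgeR adjusted p = 0.0281). The call was lost without replicate 2 or replicate 3 and without any single NS1 library other than treated replicate 2. With the replicate block 3 of the markers were called, namely GATA3, FOXA1 and KRT19, and with a block within each line 6 were called. The 6.15% comes from the main fit, and no share over all genes is given for the fits with a block.

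MGP was nearly silent in WT cells and was the gene with the highest log2 fold change of all those tested in NS1 cells. In untreated WT cells replicates 1 to 3 held 10, 7 and 2 counts (0.469, 0.525 and 0.193 CPM), and in treated WT cells 7, 7 and 3 counts (0.332, 0.519 and 0.27 CPM). Untreated NS1 cells held 3, 35 and 17 counts (0.185, 2.54 and 1.63 CPM). Treated NS1 cells held 86, 829 and 1008 counts, or 4.47, 72.4 and 83.7 CPM. Every treated NS1 library was therefore above all other libraries, and the other 3 groups overlapped one another.

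The group means for MGP were 1.45 ± 1.19 (SD, n = 3) CPM in untreated and 53.5 ± 42.8 in treated NS1 cells, a log2 fold change of 5.24 (SE 0.9). This contrast chose the gene, so the value is a description. Between libraries of the same replicate number, the CPM ratio was 24.1, 28.4 and 51.2. The first of these rests on 3 untreated counts, and its 95% Clopper-Pearson interval, which covers counting error only, runs from 7.98 to 119. Levels per kilobase used the exons of all annotated transcripts merged, which are 2639 bases for MGP. On that length the mean MGP level in treated NS1 cells was 20.3 CPM per kilobase, the highest of the 4 members. In untreated NS1 cells it was 0.551 CPM per kilobase, against 1.07 for FILIP1L and 0.713 for TMEM108-AS1. Single MGP transcripts are shorter than the merged exons, so the order in untreated cells may depend on the transcript. Which transcripts were expressed was not tested.

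C12orf60 was likewise low in 3 groups and high in 2 of the 3 treated NS1 libraries. Its counts were 17, 8 and 6 in untreated WT cells (0.796, 0.601 and 0.58 CPM) and 30, 16 and 8 in treated WT cells (1.42, 1.19 and 0.72 CPM). Untreated NS1 cells held 16, 19 and 14 counts, or 0.988, 1.38 and 1.35 CPM. Treated NS1 cells held 35, 215 and 271 counts, or 1.82, 18.8 and 22.5 CPM. Replicate 1 of that group lay only just above the untreated NS1 libraries and the highest WT library.

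Means of C12orf60 were 1.24 ± 0.218 (SD, n = 3) CPM in untreated and 14.4 ± 11.0 in treated NS1 cells, a log2 fold change of 3.52 (SE 0.68), again a description. The CPM ratio by replicate number was 1.84, 13.6 and 16.7 in NS1 cells and 1.79, 1.98 and 1.24 in WT cells. In replicate 1 the ratios of the lines were thus close, and in replicates 2 and 3 they were not.

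**Figure D1:**
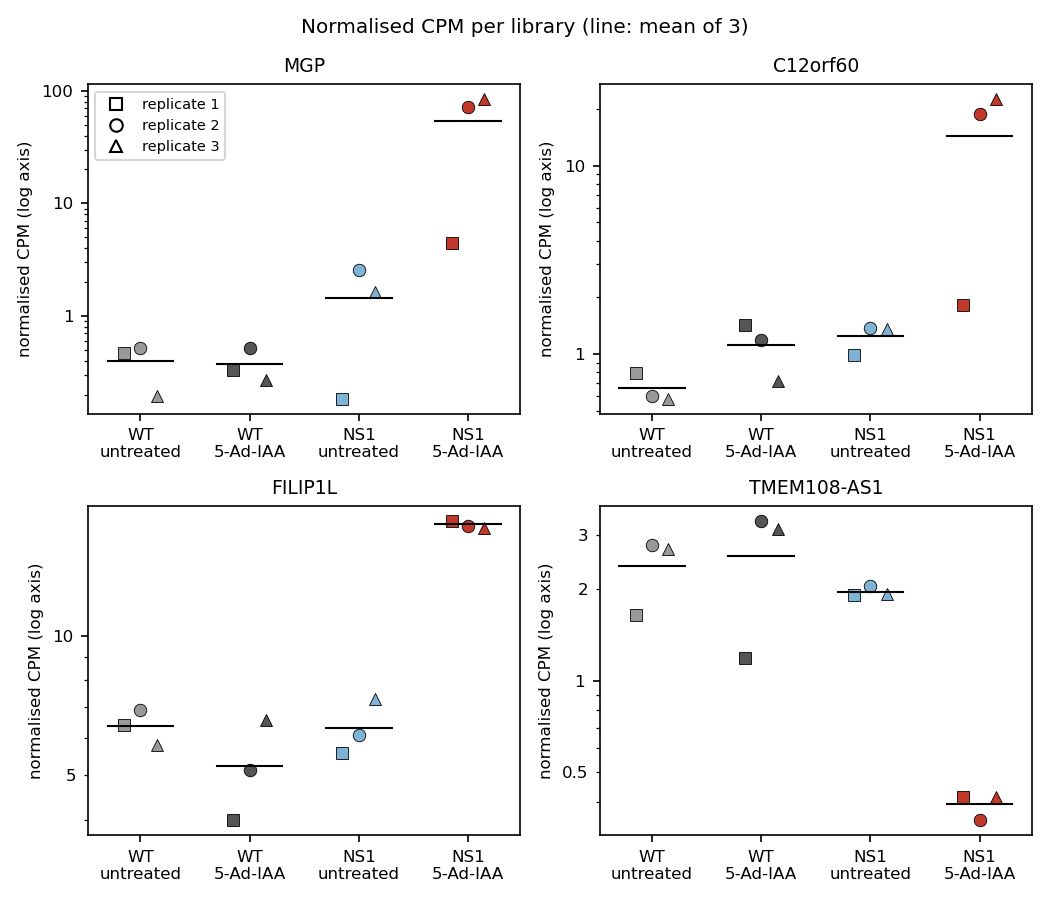
Normalised CPM on a log axis for each library of the 4 groups, 1 panel per member; point shape gives the replicate number and the line the mean of 3. MGP and C12orf60 are high in replicates 2 and 3 of treated NS1 cells, FILIP1L lies between 17.1 and 17.7 CPM there, and TMEM108-AS1 lies between 0.349 and 0.416 CPM.

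Treated NS1 replicate 1 was 16.2-fold below the lower of replicates 2 and 3 for MGP, and 10.3-fold below for C12orf60. Of 16520 tested genes averaging 1 CPM or more over the 12 libraries, 16 (0.0969%) were at least 10-fold lower in replicate 1 and 5 (0.0303%) at least 10-fold higher. Means over replicates 2 and 3 alone were 2.09 CPM in untreated and 78.0 CPM in treated NS1 cells for MGP, and 1.36 and 20.6 CPM for C12orf60. Without replicate 1 the log2 fold change in NS1 cells was 5.18 (SE 0.2) for MGP and 3.91 (SE 0.21) for C12orf60, so the SE was smaller in both.

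The balance of the overlapping genes is given as a description, because the NS1 values that enter it chose both genes. MGP held 2 to 10 counts in WT libraries and 3 in untreated NS1 replicate 1, so the ratios there rest on few counts. There were 0.407, 0.259 and 0.269 C12orf60 counts per MGP count in treated NS1 cells, against 5.33, 0.543 and 0.824 in untreated NS1 cells and 1.14 to 4.29 in WT cells. All 3 treated NS1 libraries lay below the other 9. From untreated to treated NS1 cells, C12orf60 gained 0.832 CPM in replicate 1, 17.4 in replicate 2 and 21.2 in replicate 3, where MGP gained 4.29, 69.8 and 82.1 CPM. The gain in C12orf60 was thus 0.194, 0.249 and 0.258 of the gain in MGP. Whether reads from MGP transcripts were counted for C12orf60 was not tested, and the use of strand is not given in the sources used here. Counted as 1 locus, the sum of both genes had a log2 fold change of 4.67 in NS1 cells.

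**Figure D2:**
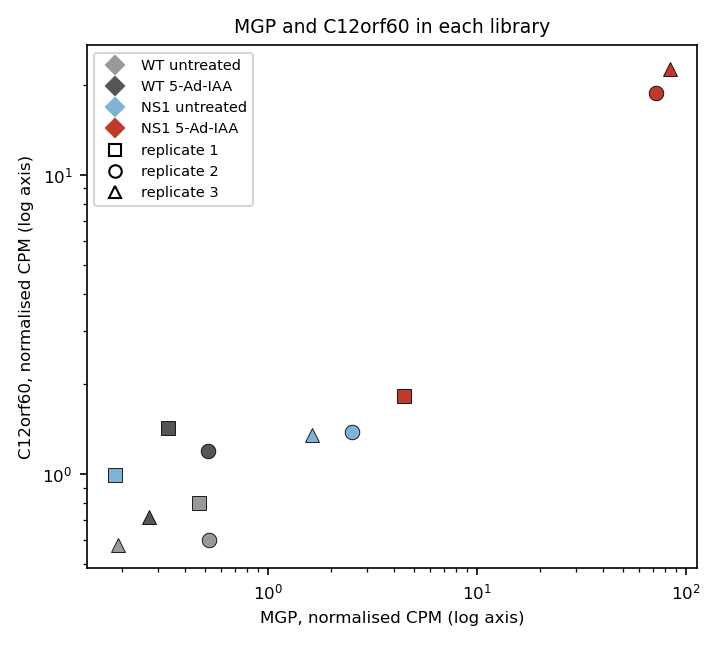
C12orf60 against MGP, normalised CPM on log axes, 1 point per library, with colour for the group and shape for the replicate number. Replicates 2 and 3 of treated NS1 cells lie far from the other 10 libraries on both axes, and replicate 1 of that group lies next to untreated NS1 cells.

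FILIP1L was expressed in every group and was 2.34 to 3.19 times as high in treated NS1 libraries as in untreated ones of the same replicate number. Untreated WT cells held 6.42, 6.91 and 5.8 CPM, and treated WT cells 3.99, 5.12 and 6.57 CPM. Untreated NS1 cells held 5.56, 6.11 and 7.31 CPM. The treated NS1 libraries held 17.7, 17.3 and 17.1 CPM, from 341, 198 and 206 counts. They exceeded the other 9 libraries, which overlapped, and replicate 1 did not stand apart here.

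The mean of FILIP1L in NS1 cells went from 6.32 ± 0.897 (SD, n = 3) to 17.4 ± 0.32 CPM, a log2 fold change of 1.47 (SE 0.17). In WT cells it went from 6.37 ± 0.555 to 5.23 ± 1.3 CPM, a log2 fold change of -0.31 (SE 0.18). The difference between these effects was 1.78 (SE 0.25), and it is the value that chose the gene, as 1 of 4 genes with a called interaction. The other genes were BMF at 3.17, FABP4 at -2.04 and ZWINT at -0.86. Without replicate 1 the FILIP1L difference was 1.51, and without replicate 3 it was 2.15. FILIP1, the related filamin-binding gene, had at most 2 counts in any library.

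TMEM108-AS1 moved in the other direction and was lowest in all 3 treated NS1 libraries. Untreated WT cells held 35, 37 and 28 counts (1.64, 2.78 and 2.71 CPM), and treated WT cells 25, 45 and 35 counts (1.19, 3.34 and 3.15 CPM). Untreated NS1 cells held 31, 28 and 20 counts, or 1.91, 2.04 and 1.92 CPM. Treated NS1 cells held 8, 4 and 5 counts, or 0.416, 0.349 and 0.415 CPM. The latter group did not overlap any other, and replicate 1 was the lowest library of both WT groups.

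The TMEM108-AS1 mean in NS1 cells went from 1.96 ± 0.0675 (SD, n = 3) to 0.393 ± 0.0383 CPM, a log2 fold change of -2.28 (SE 0.44) that chose the gene. By replicate number the untreated library was 4.6, 5.83 and 4.63 times as high as the treated one. TMEM108, the coding gene on the opposite strand, had at most 1 count in any library. A lower count in bulk RNA cannot tell fewer expressing cells from less RNA per cell, and the same holds for the members that were higher.

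Among the 1056 genes that were called in NS1 cells, averaged at least 1 CPM and did not overlap between the groups, MGP, IDO1 (3.82) and C12orf60 had the highest log2 fold changes. DIO2 at 3.42 followed. ESM1 (-3.73), TMEM108-AS1 and COL17A1 (-2.23) had the lowest, and FABP4 at -1.8 followed. All 4 members were non-overlapping between treated and untreated NS1 cells, which holds for 27.2% of the genes tested. Nothing is read from that count, since this contrast took part in the choice.

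In WT cells the inducer effect took no part in the choice of MGP, C12orf60 and TMEM108-AS1, and none passed the test. MGP held at most 10 counts in any WT library and did not pass the filter with only the WT groups. Its test in WT cells therefore cannot show that a response was absent. For MGP the means were 0.396 ± 0.178 (SD, n = 3) and 0.374 ± 0.13 CPM, with a log2 fold change of -0.16 (SE 1.72, 95% interval -3.53 to 3.2, edgeR adjusted p = 1.0). C12orf60 averaged 0.659 ± 0.12 and 1.11 ± 0.358 CPM, and its log2 fold change was 0.76 (SE 0.87, interval -0.94 to 2.45, edgeR adjusted p = 1.0), with a higher value in 3 of 3 replicate pairs. TMEM108-AS1 averaged 2.37 ± 0.637 and 2.56 ± 1.19 CPM, and its log2 fold change was 0.09 (SE 0.34, interval -0.58 to 0.77, edgeR adjusted p = 1.0), higher in 2 of 3 pairs. The values in NS1 cells, 5.24 for MGP, 3.52 for C12orf60 and -2.28 for TMEM108-AS1, chose the genes. They are therefore not compared with these 3 intervals, and no difference between the lines is read from them. All 4 members overlapped between treated and untreated WT cells, where 3.41% of tested genes did not.

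**Figure D3:**
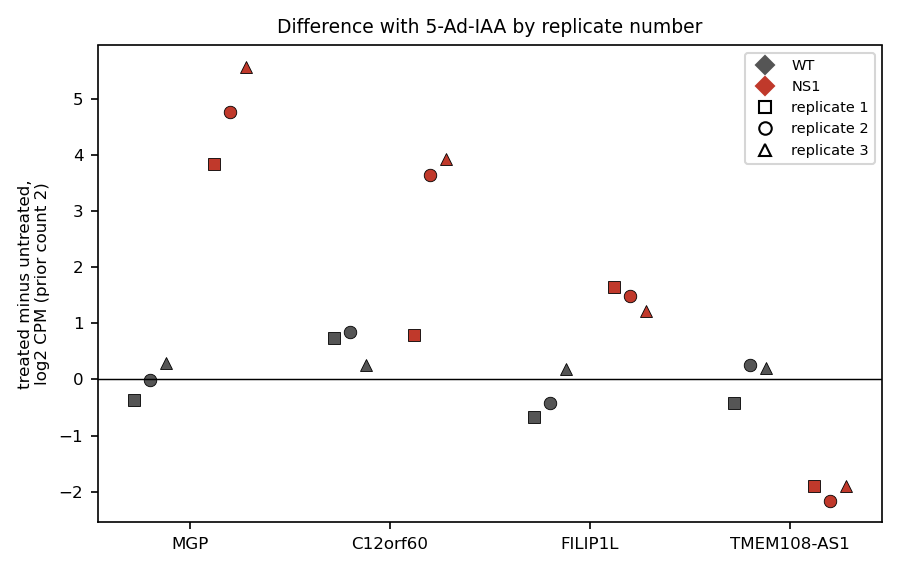
Treated minus untreated log2 CPM (prior count 2) for each pair of libraries with the same replicate number, by member; grey is WT, red is NS1. The 3 NS1 pairs of TMEM108-AS1 lie between -2.16 and -1.89, those of FILIP1L between 1.21 and 1.65, and the replicate 1 pair of C12orf60 at 0.8 lies beside its WT pairs.

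The lines before treatment are compared only as a description, because the untreated NS1 libraries took part in the choice. MGP had a log2 difference of NS1 over WT of 1.72 (SE 1.37) in untreated cells, with 2 NS1 libraries above and 1 below all WT libraries. C12orf60 had 0.84 (SE 0.88), from 17, 8 and 6 counts in untreated WT and 16, 19 and 14 counts in untreated NS1 libraries. FILIP1L at -0.02 (SE 0.18) and TMEM108-AS1 at -0.25 (SE 0.35) overlapped between the lines. With the inducer in both lines, the NS1 over WT differences were 7.12 (SE 1.06) for MGP, 3.61 (SE 0.68) for C12orf60, 1.75 (SE 0.17) for FILIP1L and -2.62 (SE 0.43) for TMEM108-AS1. The interaction was 5.41 (SE 2.12) for MGP, 2.77 (SE 1.14) for C12orf60 and -2.37 (SE 0.57) for TMEM108-AS1.

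Genes within 500 kb were examined next. Of 24 annotated neighbours of MGP and C12orf60, 5 passed the filter on low counts and 0 were called in NS1 cells. The share called over all tested genes was 6.15%. ARHGDIB had a log2 fold change of 0.2 (SE 0.33), H2AFJ, a histone gene, 0.49 (SE 0.31), and ATF7IP, a chromatin factor gene, 0.0 (SE 0.13). WBP11, a splicing factor gene that starts beside C12orf60 on the opposite strand, had -0.23 (SE 0.13). PLBD1 had at most 2 counts in any NS1 library, against 9 to 22 in WT libraries, and no fold change is given for it.

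ERP27, which encodes a protein of the endoplasmic reticulum, is the next gene beyond the end of C12orf60 and was singled out after its values were seen. It lies on the minus strand of chromosome 12 from 14914035 to 14939082 in GENCODE 29, which holds an earlier version. Its nearer end is 7.4 kb from the end of C12orf60, and they share no exonic base. WT libraries held at most 1 count of ERP27. Untreated NS1 libraries held 0, 3 and 6 counts (0.0, 0.218 and 0.577 CPM), and treated NS1 libraries held 14, 41 and 29 counts (0.728, 3.58 and 2.41 CPM). As for MGP and C12orf60, all treated NS1 libraries were above the rest and replicate 1 was the lowest of them.

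ERP27 was removed by the main filter. With a filter on a mean of 10 counts in a group, its log2 fold change in NS1 cells was 3.18 (SE 0.76, edgeR adjusted p = 0.0278), and without a filter 3.17 (adjusted p = 2.34e-07). It passed the filter on 10 counts only through treated NS1 cells, with a mean of 28.0 counts against 0.667, 1.0 and 3.0 in the other groups. ERP27 was also picked after its values were seen, so its p-values are descriptions and lend no support. With the main filter it was kept only in fits that left out libraries, where leaving out replicate 1, 2 or 3 gave an adjusted p of 0.00126, 0.407 or 0.243 in NS1 cells. Around these 3 genes, ARHGDIB, H2AFJ, WBP11 and ATF7IP were not called in the main fit; H2AFJ was called without the filter (0.49, edgeR adjusted p = 0.013). With a block within each line H2AFJ (0.46, edgeR adjusted p = 0.00672) and WBP11 (-0.23, edgeR adjusted p = 0.0433) were called.

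Around FILIP1L, 16 neighbours are annotated, 7 were tested and 0 were called, where 6.15% of all tested genes were called in NS1 cells. CMSS1, the gene that contains FILIP1L on the opposite strand, averaged 42.9 ± 12.4 (SD, n = 3) CPM in untreated and 29.2 ± 11.9 in treated NS1 cells (log2 fold change -0.55, SE 0.26, edgeR adjusted p = 0.257). With the replicate number as a block, CMSS1 was called lower (-0.57, SE 0.17, edgeR adjusted p = 0.047), opposite in direction to FILIP1L. Around TMEM108-AS1, 16 neighbours are annotated and 3 were tested. TOPBP1, which encodes a protein of the DNA damage checkpoint, fell from 56.2 ± 2.59 to 37.3 ± 1.78 CPM (log2 fold change -0.59, SE 0.11, edgeR adjusted p = 0.0103), a call lost without replicate 2, replicate 3 or treated NS1 replicate 3. CDV3, also a tested neighbour, had a log2 fold change of -0.17 (SE 0.12).

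Genes of the pathways in which the members act were counted next. Over all tested genes the main fit called 2.76% higher and 3.39% lower in NS1 cells, and no count is read as a result about a pathway. No share over all genes is given for the alternative fits, so their counts cannot be set against these shares. Of 19 genes of the vitamin K cycle and of Gla proteins, 11 were tested in NS1 cells. Of these, 2 were called higher and 0 lower, with a median log2 fold change of 0.03 against 0.01 over all genes. PRRG1, a membrane protein with a Gla domain, rose from 11.6 ± 0.89 (SD, n = 3) to 23.5 ± 3.43 CPM (log2 fold change 1.01, SE 0.14, edgeR adjusted p = 0.0031). NQO1, a quinone reductase, rose from 386 ± 78.2 to 607 ± 123 CPM (0.65, SE 0.17, edgeR adjusted p = 0.0352). GGCX, the carboxylase that modifies Gla proteins, and VKORC1, which regenerates its cofactor, had log2 fold changes of -0.13 (SE 0.09) and 0.03 (SE 0.18). With the replicate block 3 of these genes were called, GAS6 being added. Both calls were lost without replicate 2 and without replicate 3, and that of NQO1 without any single NS1 library other than treated replicate 1.

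Of 26 BMP signalling genes, 21 were tested, 0 were called higher and 1 lower, with a median of 0.19. Among all tested genes the main fit called 2.76% higher and 3.39% lower, and nothing about the pathway is read from this count. FST, the secreted antagonist follistatin, fell from 112 ± 4.69 (SD, n = 3) to 56.5 ± 12.5 CPM (log2 fold change -0.98, SE 0.13, edgeR adjusted p = 0.00242). The ligands BMP2 at 0.23 (SE 0.41) and BMP4 at 0.39 (SE 0.31) did not pass, nor did the target genes ID1 at 0.33 (SE 0.22) and ID2 at 1.23 (SE 0.4, edgeR adjusted p = 0.0891). With the replicate block 3 were called, namely FST, ID2 and SMAD7, and with a block within each line 11 were called. The shares over all genes in these fits are not given, so the counts do not show a response of the list. Without replicate 1 the count was 4, and without replicate 2 or replicate 3 it was 0.

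Of 14 genes of mineralization and matrix, 8 were tested, 0 were called higher and 1 lower, with a median of 0.05. The shares over all tested genes in the main fit were 2.76% and 3.39%. SLC20A1, a phosphate transporter, fell from 213 ± 7.11 (SD, n = 3) to 143 ± 1.53 CPM (log2 fold change -0.57, SE 0.14, edgeR adjusted p = 0.0313). SPARC, a matrix protein, had 0.68 (SE 0.28) and TGM2, a crosslinking enzyme, -0.42 (SE 0.28). The replicate block gave 3 calls and the block within each line 6. The SLC20A1 call was lost without any single NS1 library and without replicate 2 or replicate 3.

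Among 7 filamins and partners of FILIP1L, 6 were tested, 1 was called higher and 0 lower, with a median of 0.33. The shares over all tested genes in the main fit were 2.76% and 3.39%. FBLIM1, a filamin-binding LIM protein, rose from 202 ± 18.9 (SD, n = 3) to 302 ± 8.1 CPM (log2 fold change 0.58, SE 0.14, edgeR adjusted p = 0.0311). The filamins FLNA and FLNC had log2 fold changes of 0.27 (SE 0.12) and 0.42 (SE 0.17), and the block within each line called 4 genes of the list, these and FBLIM1 included. The FBLIM1 call was lost with library totals in place of TMM, without replicate 2 or replicate 3, and without any of the NS1 libraries of these numbers. Of 12 WNT target genes 7 were tested and 0 were called, with a median of -0.14. LGR5, a stem cell receptor, had 1.58 (SE 0.69, edgeR adjusted p = 0.209), and the block within each line called 3 genes of the list. In WT cells 0 genes of each list were called.

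**Figure D4:**
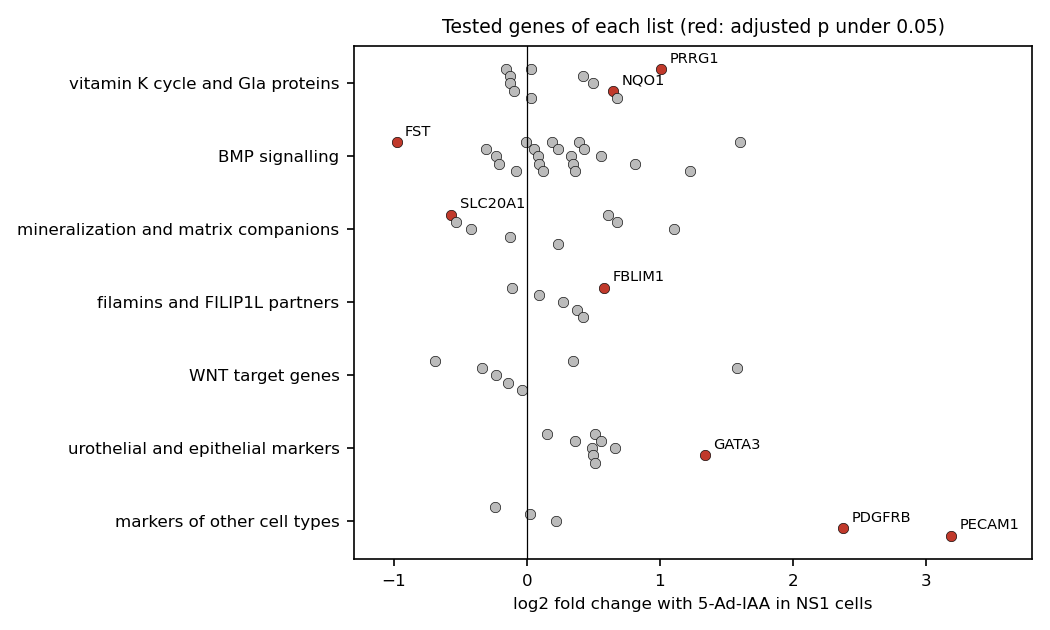
Log2 fold change with 5-Ad-IAA in NS1 cells of every tested gene in 5 pathway lists and 2 marker lists, 1 point per gene, with called genes in red and named. At most 2 genes per list were called, where 6.15% of all tested genes were. All 9 tested urothelial and epithelial markers lie to the right of 0, as do 50.8% of all tested genes.

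Since MGP is abundant in cartilage and vessel wall, 18 markers of cartilage, muscle, vessel, blood, stromal, liver and glial cells were examined beside it. Of the 5 tested, 2 were called higher in NS1 cells and 0 lower, where 2.76% and 3.39% of all tested genes were. PDGFRB, a receptor of pericytes and fibroblasts, rose from 2.31 ± 1.46 (SD, n = 3) to 11.8 ± 6.77 CPM (log2 fold change 2.38, SE 0.62, edgeR adjusted p = 0.0374). PECAM1, an endothelial adhesion molecule, rose from 0.206 ± 0.151 to 1.93 ± 0.844 CPM (3.19, SE 0.75, edgeR adjusted p = 0.0251). Its untreated NS1 libraries held 1, 5 and 2 counts. In untreated and treated WT cells PECAM1 averaged 1.07 ± 0.98 and 0.89 ± 0.44 CPM, and treated NS1 libraries overlapped those of WT cells. PDGFRB averaged 2.07 ± 1.42 and 1.94 ± 0.878 CPM in untreated and treated WT cells. Both calls were lost without replicate 2 or replicate 3 and without any single NS1 library other than treated replicate 1. The muscle gene MYH11, the macrophage gene CD68 and the glial gene GFAP were tested and not called. Their group means ran from 11.0 to 13.3, from 12.5 to 19.2 and from 0.698 to 1.32 CPM. COMP of cartilage, DCN of fibroblasts and ALB of liver had 0 counts in every library. The endothelial genes CDH5 and VWF held at most 2 and 13 counts in NS1 libraries, and 9 of the 18 markers had at most 3 counts anywhere. The summed level ran from 32.1 to 40.9 CPM in untreated WT, 30.1 to 36.6 in treated WT, 19.1 to 34.4 in untreated NS1 and 28.0 to 50.4 in treated NS1 cells. The part of other cell types in the levels of the members was not tested.

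The genes most like each member were named by the Pearson r of log2 CPM over the 12 libraries, among 16523 genes averaging at least 1 CPM. These r values are descriptions that rest mostly on the 3 treated NS1 libraries. MGP was most like PDXK, a pyridoxal kinase, at 0.987, followed by SPECC1 (0.982), CTSH (0.979), DUSP16 (0.979) and EPS8L2 (0.978). PDXK went from 114 to 229 CPM in NS1 cells and was 103 and 98.5 CPM in untreated and treated WT cells. C12orf60 was most like PDXK (0.961), RNF141 (0.961), MGP itself (0.953), SPECC1 (0.946) and TRAM1 (0.942). MGP and C12orf60 thus share PDXK and SPECC1 among their nearest 5.

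FILIP1L was most like NPY1R, a neuropeptide Y receptor (0.955), DYRK1B (0.953), BBS1 (0.952), ZFYVE26 (0.952) and ZBTB20 (0.951). NPY1R averaged 1.21 CPM in untreated and 5.82 in treated NS1 cells. TMEM108-AS1 was most like PRC1, a protein of the mitotic spindle midzone, at 0.982, and PRC1 went from 251 to 145 CPM in NS1 cells. ENSG00000284946 (0.982), SLC20A1 (0.98), PRC1-AS1 (0.979) and FRMD3 (0.978) followed. Between members, r was 0.868 for MGP with FILIP1L, 0.762 for C12orf60 with FILIP1L, and -0.838 for FILIP1L with TMEM108-AS1.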

How the data were processed

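The authors deposited raw read counts for each gene in 12 libraries, as whole numbers. STAR 2.7.3a, featureCounts 1.6.4 and the build hg38 are named, per the submitters' processing notes; settings, annotation and strand handling are not given in the sources used here. Columns were matched to libraries by name, and 0 columns were left unused. Library totals ran from 10593934 to 20266996 counts, and a level at or under 3 counts per library was treated as the detection floor.

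The analysis used edgeR 4.0.16 (R 4.3.3): filterByExpr kept 17775 of 60603 genes, TMM set library sizes, and one quasi-likelihood model with a mean per group gave 5 contrasts, tested two-sided with Benjamini-Hochberg adjustment over all genes tested. SE is the size of the log2 fold change divided by the square root of F. Intervals of log2 fold changes used the normal quantile and would be wider with a t quantile. The model was tested on simulated data with 200 changed genes. DESeq2 1.42.0, other scalings and filters, replicate blocks and left-out libraries were alternatives.

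The members and the gene lists (5 of pathways, 2 of cell type markers) were chosen with earlier results of these data known. Named genes are the members, list genes called in NS1 cells, genes within 500 kb and the 5 genes most like each member; others were named after their values were seen. Exons and overlaps came from GENCODE 29, and start sequences from RefSeq. Libraries of the same number deviated together, and the correlation of a treated with its untreated library was 0.71, 0.39 and 0.38 in NS1 and 0.75, 0.38 and 0.26 in WT cells. Libraries numbered 2 and 3 also correlated across numbers (0.37 and 0.28 in NS1, 0.37 and 0.25 in WT cells), so mainly number 1 separates. The numbers were taken to pair the libraries, but the main fit holds no term for them, so its SEs, p-values and counts of calls are unpaired. The fits with a block are the paired alternatives. A few items are not reported here.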

Additional observations from a re-analysis of the deposited data

Results flagged for a closer look

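The inducer effect on FILIP1L differed between the lines by 1.78 on the log2 scale (1.47 in NS1 cells, -0.31 in WT cells). The interaction term that flagged it is also what chose the gene. For GATA3 the difference was 1.49, with 1.34 in NS1 cells, where all 3 replicate pairs went up, and -0.14 in WT cells, where all 3 went down. That pattern of signs flagged GATA3; the interaction test did not pass for it (SE 0.45, edgeR adjusted p = 0.172).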

How the results depend on the processing

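The log2 fold changes of the 4 members in NS1 cells kept their sign under all alternatives run. Leaving out a replicate or a library gave 4.63 to 6.06 for MGP, 3.03 to 4.07 for C12orf60, 1.37 to 1.6 for FILIP1L and -2.34 to -2.18 for TMEM108-AS1, and C12orf60 summed with MGP as 1 locus gave 4.67. With the replicate block they were 5.04, 3.25, 1.47 and -2.25, and pairing by block changed no member's call in WT cells. The WT effect changed sign when libraries were left out, between -0.42 and 0.1 for MGP (0.1 without replicate 1, 0.0 without untreated WT replicate 2) and between -0.17 and 0.48 for TMEM108-AS1 (-0.03 without replicate 2, -0.15 without untreated replicate 1, -0.17 and -0.09 without treated replicates 2 and 3); the cause was not tested. NS1 against WT in untreated cells ranged from 0.9 to 2.47 for MGP (0.9 without untreated NS1 replicate 2, 2.47 without replicate 1), from 0.69 to 1.19 for C12orf60 and from -0.19 to 0.07 for FILIP1L. The FILIP1L interaction ranged from 1.51 to 2.15, and its WT effect from -0.56 to -0.13.

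List counts in NS1 cells depended more on the fit. No share over all genes is given for these fits, so the counts show only that dependence. With only the 2 groups compared, 1 vitamin K, 2 BMP and 1 WNT gene were called. Without the filter on low counts the counts were 4 for BMP, 4 for mineralization, 2 for filamins, 1 for WNT, and 2, 2 and 1 for the neighbours of MGP with C12orf60, FILIP1L and TMEM108-AS1. The filter on a mean of 10 counts gave 1 neighbour of MGP with C12orf60. Library totals gave 0 filamin genes. The replicate block gave 3 vitamin K, 3 BMP and 3 mineralization genes and 1 neighbour of FILIP1L. The block within each line gave 11 BMP, 6 mineralization, 4 filamin and 3 WNT genes, 2 neighbours of MGP with C12orf60 and 3 of FILIP1L. Left-out replicates or libraries gave 0 to 3 vitamin K, 0 to 4 BMP, 0 to 3 mineralization, 0 to 2 filamin and 0 to 1 WNT genes, and 0 to 1, 0 to 2 and 0 to 1 neighbours of MGP with C12orf60, FILIP1L and TMEM108-AS1.

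Not run were the contrasts between lines with a block within each line, which that model does not estimate, and MGP with only the WT groups or only the untreated groups, where it did not pass the filter. MGP had at most 10 counts in any WT library, and the SE of its WT effect ran from 0.43 to 2.81 over the alternatives.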
